A study of Sus scrofa with 28 samples.

Results

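Transcripts of 3 inflammatory cytokines, TNF, IL1B and IL6, and of both TNF receptors, TNFRSF1A and TNFRSF1B, were followed in kidney tissue of 28 castrated male Göttingen Minipigs. The 5 genes were taken by name from a qPCR panel of 73 kidney genes and 4 reference genes, and all 5 had a value in every animal. The SD group (n = 7) was fed a standard diet. The FFC group (n = 13) was fed a diet high in fat, fructose and cholesterol. The FFC-DIA group (n = 8) was fed this type of diet and was made diabetic by streptozotocin, which destroys beta cells of the pancreas, in 3 daily doses of 60 mg/kg. By the study's methods the animals were about 7 months old at the start and were sampled after 13 months, the diabetic animals were dosed with insulin, and the FFC group received more cholesterol than the FFC-DIA group in the early months, so that the FFC and FFC-DIA groups differ in more than diabetes. The tissue is a mixture of cells, and the diabetes was chemically induced. Both comparisons with SD share the same 7 SD animals. The podocyte markers NPHS1 and WT1 had a Cq between 15.3 and 19.3 in all animals. The labels call the tissue kidney, and the methods place the samples in the cortex of the left kidney.

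Values are quantification cycles (Cq), the number of PCR cycles an assay needs to reach a set fluorescence. A lower Cq means more transcript, and 1 cycle is a factor of 2 where the product doubles in every cycle. For the log2 relative quantity, the Cq of a gene was subtracted from the average of 3 reference genes, ACTB, TBP1 and RPL4. The panel-relative value is the mean Cq of the 73 kidney genes of the same animal minus the Cq of the gene, so that a shift shared by the whole panel is removed.

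TNF, IL1B and IL6 are secreted early in inflammation, mainly by macrophages but also by kidney cells. TNF acts on TNFRSF1A, which most cell types carry and which can signal towards NF-kB or cell death, and on TNFRSF1B, which is more restricted to immune and endothelial cells. IL1B is made as an inactive precursor that is cleaved before release, and IL6 signals through its own receptor and gp130. The shed forms of both TNF receptors are known as markers of declining kidney function in diabetes.

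The primers define which transcript each Cq reports. They are shown 5′ to 3′, as designed by the study for pig cDNA, with the last 5 bases in capitals, the 3′ end from which the polymerase extends.
TNF forward: cccccagaaggaagaGTTTC
TNF reverse: cgggcttatctgaggTTTGA
IL1B forward: gggtgagtgtgccacCATTA
IL1B reverse: tcattgaacaatctgatcatCCTTC
IL6 forward: tgggttcaatcaggaGACCT
IL6 reverse: cagcctcgacatttcCCTTA
TNFRSF1A forward: gagagtttgtgtccccaAGGAA
TNFRSF1A reverse: agtgaaggtgccattGTCGC
TNFRSF1B forward: caccaggcttccgaataCAAAC
TNFRSF1B reverse: agtttctacctggtcggAGCTA
The primers were 20 to 25 bases long. Of the 10, 9 had a GC content of 50% or 55%, and the IL1B reverse primer had 36%. All 5 symbols are protein-coding genes of the pig RefSeq table (Sscrofa11.1).

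Both receptors were detected before each ligand in every animal, by a margin that ranged widely. The smallest gap was 0.66 cycles, between TNFRSF1B and IL1B. TNFRSF1A had the earliest mean Cq at 10.1 ± 0.682 (SD, n = 28), place 18 of the 73 kidney genes, and TNFRSF1B followed at 12.5 ± 0.784, place 41. The ligands stood next to each other at places 61 to 63, with IL1B at 16.1 ± 1.48, IL6 at 16.1 ± 0.938 and TNF at 16.6 ± 0.914. TNFRSF1A came earlier than the median kidney gene in 28 of 28 animals, and each ligand came later than it in 28 of 28.

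**Figure D1:**
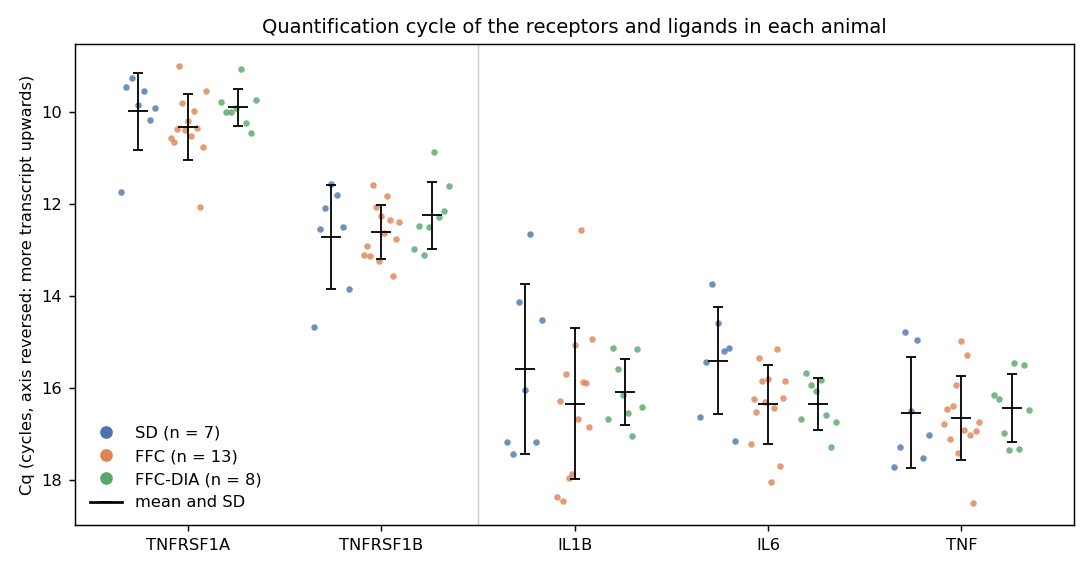
Cq in cycles of the 5 genes in each animal, with the axis reversed so that more transcript is higher. Points are animals coloured by group, and black bars are the mean and SD. The receptors lie above the ligands, and IL1B spans the widest range, from 12.6 to 18.5.

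Differences in Cq within an animal need no reference gene. They were tested against 0 with a two-sided sign-flip permutation test over 100000 sign patterns, with Benjamini-Hochberg adjustment over all pairs of the 73 kidney genes, of which 94.6% passed. TNFRSF1B came 2.41 ± 0.56 cycles (SD, n = 28) after TNFRSF1A, and in 28 of 28 animals (adjusted p = 1.2e-05, resting on the smallest p the permutations can give). IL1B came 3.55 ± 1.46 cycles after TNFRSF1B, again in 28 of 28 animals, with the same adjusted p. All 6 pairs of a ligand and a receptor had this order in every animal.

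Among the ligands the order was not settled. IL6 and IL1B differed by 0.03 ± 1.54 cycles, with IL6 later in 11 of 28 animals (adjusted p = 0.909). TNF came 0.45 ± 1.03 cycles after IL6, in 18 of 28 animals (adjusted p = 0.0337), and 0.48 ± 1.22 cycles after IL1B, in 20 of 28 (adjusted p = 0.0496). The first of these calls was lost without any of SD animals 2, 4 and 6, FFC animal 10 or FFC-DIA animal 4, with adjusted p up to 0.0602. The second held only when SD animal 2, FFC animals 1, 3, 5, 6 or 7, or FFC-DIA animals 1 or 5 were the one left out, and otherwise reached 0.0913. A Cq difference between assays also carries the efficiency of each primer pair. Factors of 1.9 per cycle for the ligands and 2.1 for the receptors were tried, over the 16 cycles of pre-amplification as well. In log2 units TNFRSF1B then fell 0.84 behind IL1B, 0.80 behind IL6 and 0.39 behind TNF. The order of TNFRSF1B and the ligands thus rests on similar efficiencies. TNFRSF1A kept its place before every ligand under each setting tried.

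The spread between animals also separated ligands from receptors. Relative to the panel and with group means removed, IL1B had an SD of 1.45, the sixth widest of the 73 genes, TNF of 0.731 at place 15 and IL6 of 0.642 at place 24. TNFRSF1B had an SD of 0.414 at place 48, and TNFRSF1A of 0.253 at place 68, among the steadiest genes of the panel, where the median SD was 0.496. The earliest IL1B Cq was 12.6 in FFC animal 9 and 12.7 in SD animal 5, while the FFC-DIA animals stayed between 15.1 and 17.0. Without these 2 animals, left out after seeing the data, the SD of IL1B was 1.17. On the reference-gene scale the order of the spreads changed in that TNFRSF1B, at 0.770 and place 25, was wider than IL6, at 0.717 and place 33.

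The diet comparison asks whether feeding FFC, with or without diabetes, was accompanied by other levels of these transcripts. None of the 5 genes passed in the permutation test of the F statistic over the 3 groups with Bonferroni adjustment over the 73 kidney genes. This held relative to the reference genes, where 5.48% of the 73 genes passed, and relative to the panel mean, where 2.74% passed. At an unadjusted p under 0.05 IL6 was the 1 gene of the 5 on both scales, against 35.6% and 21.9% of the panel. With limma's moderated F statistic on the reference-gene scale it was again the 1 gene, with none past adjustment. The share of the panel was not counted for limma's F statistic. Feeding and diabetes were also compared by exact two-sided permutation tests of pairs of groups with Benjamini-Hochberg adjustment over the 73 genes. No member passed in any of the 3 pairs. Relative to the reference genes 17.8% of the panel was called higher and 1.37% lower for FFC against SD, 2.74% higher and 0% lower for FFC-DIA against SD, and 1.37% higher and 4.11% lower for FFC-DIA against FFC. On the panel scale the shares were 0% higher and 1.37% lower, 2.74% higher and 1.37% lower, and 4.11% higher and 4.11% lower. Without adjustment, 1 of the 5 genes by these exact tests, IL6, was lower at p under 0.05 in 4 of these comparisons, and none was higher. On the reference-gene scale these were FFC-DIA against SD, where 4.11% of the panel was lower and 6.85% higher, and FFC-DIA against FFC, where 20.5% was lower and 1.37% higher. For FFC against SD on that scale no member was under 0.05, where 34.2% was higher and 2.74% lower. On the panel scale they were FFC against SD, where 9.59% was lower and 5.48% higher, and FFC-DIA against SD, where 6.85% was lower and 8.22% higher. For FFC-DIA against FFC no member was under 0.05, where 6.85% was higher and 11.0% lower.

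TNF passed in no comparison. Its log2 relative quantity ran from -9.53 to -6.63 in SD (median -8.13), from -8.77 to -5.42 in FFC (median -7.97) and from -9.21 to -7.15 in FFC-DIA (median -8.02), and 2 FFC animals lay above every SD animal. The mean difference was 0.51 (SE 0.48) for FFC minus SD (exact permutation p = 0.304) and 0.07 (SE 0.45) for FFC-DIA minus SD (p = 0.878). The panel-relative values were -0.01 (SE 0.38, p = 0.978) and -0.17 (SE 0.39, p = 0.655). The interval of 2 SE for FFC-DIA minus SD, from -0.96 to 0.62 relative to the panel, includes differences of either direction.

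IL1B gave the least precise comparison of the 5. Its log2 relative quantity ran from -9.68 to -4.33 in SD (median -7.37), from -9.76 to -2.70 in FFC (median -7.06) and from -8.93 to -6.80 in FFC-DIA (median -7.84). The FFC-DIA values lay inside the range of both other groups. The mean difference was -0.14 (SE 0.84) for FFC minus SD (exact permutation p = 0.881), -0.54 (SE 0.71) for FFC-DIA minus SD (p = 0.457) and -0.41 (SE 0.59) for FFC-DIA minus FFC (p = 0.597). With 2 SE the first of these runs from -1.81 to 1.53, so differences of more than 1 cycle in either direction lie within it.

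TNFRSF1A varied least. Its log2 relative quantity ran from -1.95 to -1.22 in SD (median -1.71), from -1.97 to -0.11 in FFC (median -1.52) and from -2.10 to -0.999 in FFC-DIA (median -1.75). In FFC 3 of 13 animals lay above every SD animal, led by FFC animal 9 at -0.11. In this animal the reference gene RPL4 had a Cq of 11.6, against a group mean of 9.30, which raises all its values on this scale. The mean difference was 0.29 (SE 0.16) for FFC minus SD (exact permutation p = 0.164) and 0.05 (SE 0.16) for FFC-DIA minus SD (p = 0.776). The panel-relative difference was -0.23 (SE 0.12, p = 0.072) and -0.19 (SE 0.13, p = 0.180), so the sign depended on the scale. With 2 SE that of FFC-DIA and SD lies between -0.45 and 0.08.

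TNFRSF1B was the member whose FFC mean stood highest over SD. Its log2 relative quantity ran from -5.83 to -3.21 in SD (median -4.53), from -4.58 to -1.96 in FFC (median -3.71) and from -5.09 to -3.04 in FFC-DIA (median -4.00). Of the FFC animals 12 of 13 lay above the SD mean, but only 2 above every SD animal. The difference was 0.74 (SE 0.39, exact permutation p = 0.0505, adjusted 0.132) for FFC minus SD and 0.43 (SE 0.44, p = 0.335) for FFC-DIA minus SD. The median kidney gene moved by 0.55 and 0.21 in the same comparisons, and relative to the panel mean TNFRSF1B differed by 0.22 (SE 0.21, p = 0.226) and 0.20 (SE 0.26, p = 0.461). With limma TNFRSF1B was the 1 member with an unadjusted p under 0.05 for FFC minus SD, beside 35.6% of the panel in that direction, and it did not pass adjustment. The reference gene RPL4 had a mean Cq of 7.86 (SD group), 9.30 (FFC) and 8.11 (FFC-DIA). With RPL4 as the sole reference the FFC minus SD difference was 1.56 for TNFRSF1B (adjusted p = 0.032) and 1.11 for TNFRSF1A (adjusted p = 0.036), where 72.6% of the 73 genes passed as higher, while with ACTB alone it was 0.27 and -0.18.

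**Figure D2:**
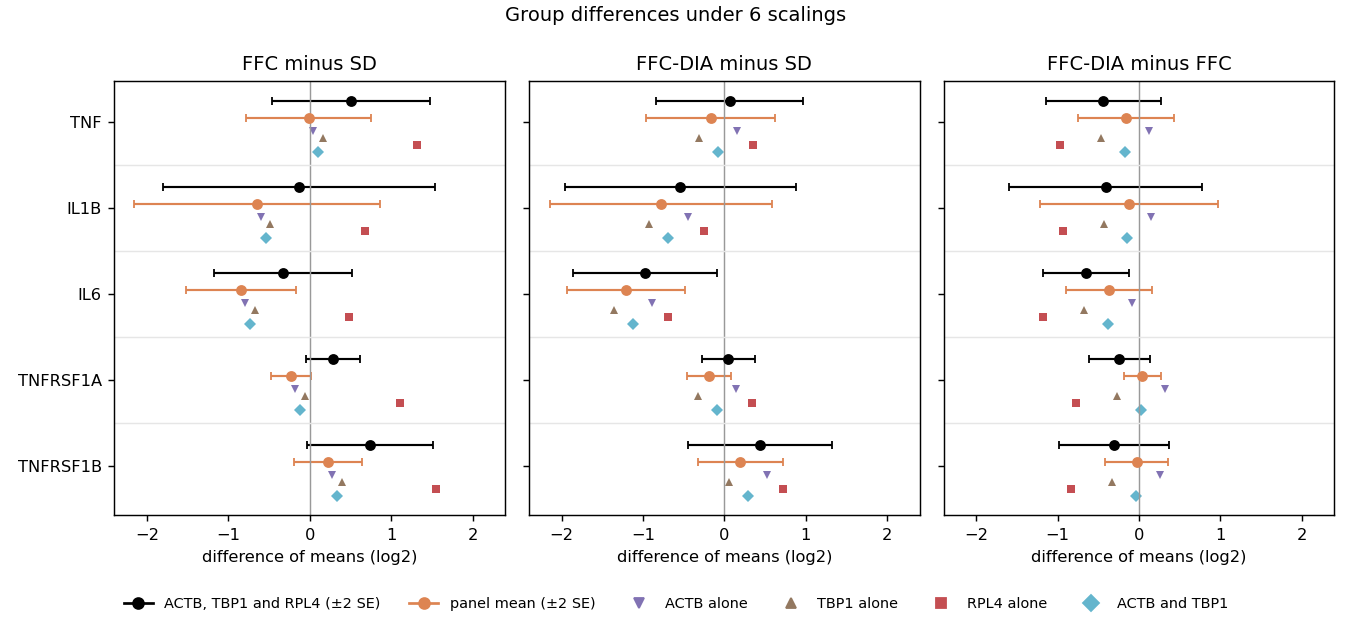
Difference of group means in log2 units for the 5 genes under 6 scalings, with bars of 2 SE for the reference-gene scale (black) and the panel scale (orange). IL6 lies left of 0 for FFC-DIA minus SD in all 6, while the RPL4 points lie farthest right in FFC minus SD.

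IL6 had lower means in both groups on the FFC diet, without passing adjustment. The panel-relative value ran from -4.45 to -2.05 in SD (median -2.68), from -5.27 to -2.73 in FFC (median -3.65) and from -4.93 to -3.25 in FFC-DIA (median -4.09). All 8 FFC-DIA animals and 12 of 13 FFC animals lay below the SD mean. The difference was -0.84 (SE 0.34, exact permutation p = 0.0135, adjusted 0.123) for FFC minus SD and -1.21 (SE 0.36, p = 0.00684, adjusted 0.0891) for FFC-DIA minus SD, the lowest of the 73 genes. Between FFC-DIA and FFC it was -0.37 (SE 0.26, p = 0.182). Over the 3 groups p was 0.00384, the fifth smallest of the panel (Bonferroni 0.280, Benjamini-Hochberg 0.0561).

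On the reference-gene scale IL6 showed the same direction with other sizes. The values ran from -9.12 to -6.17 in SD (median -6.84), from -8.41 to -6.16 in FFC (median -7.59) and from -8.93 to -7.34 in FFC-DIA (median -8.05). All 8 FFC-DIA animals lay below the SD mean, and none below every SD animal. The difference was -0.33 (SE 0.42, p = 0.371) for FFC minus SD, -0.98 (SE 0.44, p = 0.0426, adjusted 0.379) for FFC-DIA minus SD and -0.65 (SE 0.26, p = 0.0228, adjusted 0.166) for FFC-DIA minus FFC. For FFC minus SD the sign turned with RPL4 alone, to 0.49, and with GAPDH alone once SD animal 6, whose GAPDH Cq stood apart, was left out, to 0.12.

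A single SD animal set the outcome of some of the IL6 tests. SD animal 7 had a panel-relative IL6 of -4.45, while the other 6 lay between -3.20 and -2.05. In the analysis that left out each animal in turn, the difference without SD animal 7 was -1.10 (adjusted p = 0.0175) for FFC minus SD and -1.47 (adjusted p = 0.0162) for FFC-DIA minus SD, and over the 3 groups the Bonferroni-adjusted p was 0.0168. Of the 73 genes 2.74% and 4.11% were then called lower, and 4.11% passed over the 3 groups. Without it all 8 FFC-DIA animals and 12 of 13 FFC animals lay below every SD animal. On the reference-gene scale FFC-DIA minus SD was -1.32 without it (adjusted p = 0.0486), where 1.37% of the genes were called lower. The other IL6 tests on that scale did not pass, whichever animal was left out. By exact permutation the lowest adjusted p was 0.141 for FFC minus SD and 0.0919 for FFC-DIA minus FFC. Over the 3 groups the lowest Bonferroni-adjusted p of the permutation test of F was 0.099. With any other animal left out these results stayed on the same side of the threshold as with all 28. The same SD animal had the lowest TNFRSF1B of all animals, at -1.16 relative to the panel.

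**Figure D3:**
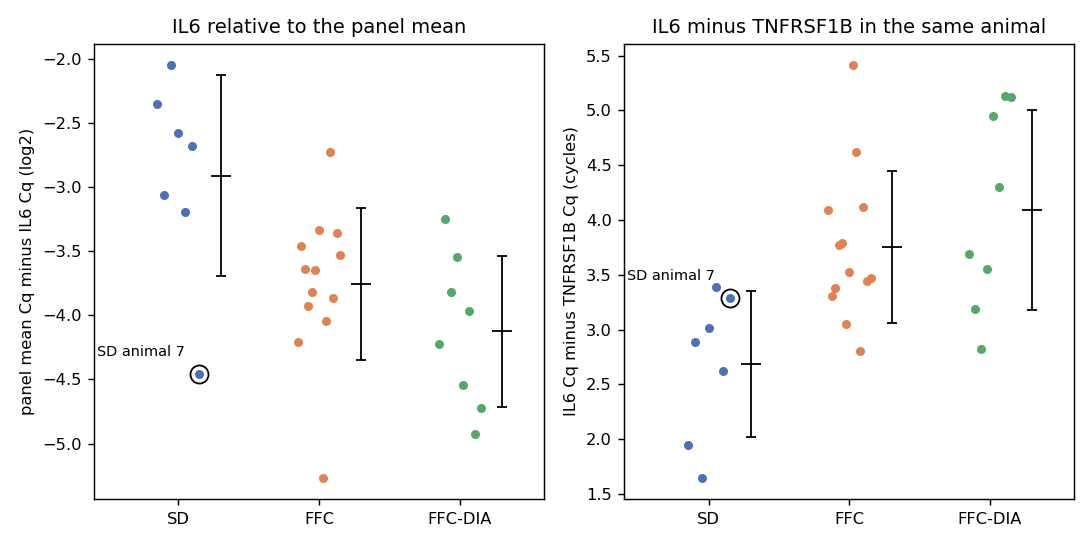
IL6 relative to the panel mean in log2 units (left) and the Cq of IL6 minus the Cq of TNFRSF1B in the same animal in cycles (right). Points are animals, black bars the mean and SD, and the circle marks SD animal 7, which lies at -4.45 on the left and at 3.29 on the right, inside the range of its group.

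Of the 10 Cq differences within an animal among the 5 genes, 1 passed over the 3 groups, beside 8.71% of all pairs of kidney genes, and 2 had an unadjusted p under 0.05, beside 22.8%. The share among the 5 genes was thus close to or below that of the panel. The 1 that passed was the distance between IL6 and TNFRSF1B. It ran from 1.64 to 3.39 cycles in SD (median 2.88), from 2.80 to 5.42 in FFC (median 3.53) and from 2.82 to 5.13 in FFC-DIA (median 3.99). All 13 FFC and all 8 FFC-DIA animals lay above the SD mean, and 9 and 6 of them above every SD animal. The permutation test of F gave p = 0.00335 and, with Benjamini-Hochberg adjustment over all pairs of kidney genes, 0.0434. The difference was 1.07 cycles (SE 0.32, exact permutation p = 0.00212, adjusted 0.0845) for FFC minus SD and 1.41 cycles (SE 0.41, p = 0.00622, adjusted 0.0928) for FFC-DIA minus SD, neither past the threshold, where 0.457% and 5.02% of the pairs passed. Between FFC-DIA and FFC it was 0.34 cycles (SE 0.38, p = 0.339), where 5.82% of the pairs passed and 19.4% had an unadjusted p under 0.05. Without FFC-DIA animal 3 the difference of FFC-DIA and SD was 1.59 cycles (adjusted p = 0.041), where 4.79% of the pairs passed. The reference genes do not enter this measure.

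That call lay close to the threshold. It was lost with amplification factors of 2.1 for receptors and 1.9 for ligands (permutation p = 0.00436, adjusted 0.0503). It was also lost when any of 15 animals was left out, namely SD animals 1, 2, 3, 4 and 6, FFC animals 1, 2, 3, 5, 7 and 9 and FFC-DIA animals 5 to 8, with adjusted p between 0.0505 and 0.118, and it held without SD animal 7. For IL6 minus TNFRSF1A p was 0.0343 (adjusted 0.170), and without SD animal 7 it was 0.00195 (adjusted 0.029), where 9.82% of the pairs passed. The remaining 8 of the 10 pairs among the 5 genes had an adjusted p of 0.344 or more. TNF minus TNFRSF1A was 6.55 ± 0.928 cycles in SD, 6.33 ± 0.734 in FFC and 6.53 ± 0.726 with diabetes, and TNF minus TNFRSF1B was 3.81 ± 1.02, 4.05 ± 0.613 and 4.18 ± 0.738, with permutation p over the 3 groups of 0.781 and 0.645.

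Markers of immune cells were set beside the IL6 values. Fewer cells of a type and less RNA per cell cannot be told apart in whole tissue. Of the 3 T cell markers CD3E, CD4 and CD8A, 1 was called lower than SD relative to the panel, where 1.37% of the 73 genes were lower in each comparison. This was CD8A, a coreceptor of cytotoxic T cells, which fell by 1.40 (SE 0.35, adjusted p = 0.0264) in FFC and by 1.04 (SE 0.34, adjusted p = 0.0416) in FFC-DIA. CD3E and CD4 differed from SD by -0.03 and -0.13 in FFC and by -0.19 and -0.10 in FFC-DIA, and were not called. None of the 3 was called on the reference-gene scale, where CD3E and CD4 lay the other way, at 0.49 and 0.39 in FFC and at 0.05 and 0.13 in FFC-DIA, while CD8A differed by -0.89 (SE 0.38, adjusted p = 0.0875) and -0.80 (SE 0.37, adjusted p = 0.379). The summed level of the 3 markers was -1.74 to 0.11 in SD, -1.71 to -0.06 in FFC and -1.73 to -0.81 in FFC-DIA. Of the 5 macrophage and monocyte markers ADGRE1, CD68, CD80, MRC1 and CCR2, none was called against SD relative to the panel, where 0% of the genes were higher in FFC and 2.74% in FFC-DIA. Their summed level was 1.35 to 2.08, 1.32 to 2.43 and 1.55 to 2.75. MRC1, a mannose receptor of macrophages, was the 1 of the 5 called higher in FFC than in SD on the reference-gene scale (0.86, SE 0.26, adjusted p = 0.0448), with 12 of 13 FFC animals above the SD mean, where 17.8% of the 73 genes were called higher. Its panel-relative difference was 0.34 (SE 0.14, adjusted p = 0.373). In FFC-DIA against SD CD68 differed by 0.73 (SE 0.22, exact permutation p = 0.00746, adjusted 0.0891) relative to the panel. On the reference-gene scale it differed by 0.97 (SE 0.36, exact permutation p = 0.0200, adjusted 0.293). At an unadjusted p under 0.05, 8.22% and 6.85% of the genes were higher. Of the 5 markers 3 were higher and 2 lower relative to the panel, and all 5 were higher on the other scale. For FFC-DIA against FFC 1 of the 5 was called. CD68, a lysosomal protein of macrophages, was higher in FFC-DIA relative to the panel, by 0.72 (SE 0.19, adjusted p = 0.0261), where 4.11% of the genes were higher. ADGRE1 and CD80 lay the other way, at -0.22 and -0.13, and CCR2 and MRC1 were at 0.06 and 0.34. None of the 5 was called for this pair on the reference-gene scale, where CD68 differed by 0.44 (SE 0.29, adjusted p = 0.347), MRC1 by 0.06, ADGRE1 by -0.50 (unadjusted exact p = 0.0467), CD80 by -0.41 and CCR2 by -0.22. Every marker had a Cq in every animal. That of CD8A was late, at a mean of 18.1 (15.9 to 20.4), above the limit of 18 in the filter used as an alternative. The part of these cells in the IL6 values was not tested.

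Genes that TNF and IL1B are known to induce through NF-kB gave 1 call. The list held 9 genes, among them CCL2, CCL5, CXCL2, CX3CL1, VCAM1, NOS2, LCN2 and C3. Relative to the reference genes none of the 9 passed in any of the 3 pairs of groups, by exact permutation. At an unadjusted p under 0.05, 2 of the 9 were higher in FFC than in SD, beside 34.2% of all 73 genes. For FFC-DIA against SD 1 was higher, beside 6.85%, and for FFC-DIA against FFC 1 was lower, beside 20.5%. Their FFC mean exceeded that of SD in 9 of 9, with a median difference of 0.63 beside 0.55 over all 73 genes. Relative to the panel 6 of 9 were higher, with a median of 0.11 beside 0.03, and for FFC-DIA against SD 5 of 9, with a median of 0.03 beside -0.02. The 1 gene that passed was CX3CL1, a membrane-bound chemokine of endothelium and tubules, in FFC-DIA against SD relative to the panel (0.37, SE 0.0954, adjusted p = 0.00567), with all 8 FFC-DIA animals above every SD animal. On that scale 2.74% of the 73 genes passed as higher in FFC-DIA. The difference of CX3CL1 on the reference-gene scale was 0.60 (SE 0.26, adjusted p = 0.379). Over the 3 groups its panel-relative p was 0.0622 by the permutation test of F, not past adjustment.

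The pattern receptors TLR2, TLR4 and AGER, which sense microbial and tissue damage products and lead to the same cytokines, gave no call on either scale. By the permutation test of F the smallest p over the 3 groups was 0.0404, for TLR4 relative to the reference genes. On that scale 35.6% of the panel had p under 0.05. TLR4 differed by 0.55 (SE 0.31) for FFC minus SD and -0.69 (SE 0.26) for FFC-DIA minus FFC. The median kidney gene moved by 0.55 and -0.33 in the same comparisons, and the panel-relative differences of TLR4 were 0.03 and -0.41. Relative to the panel the smallest p of the 3 receptors was 0.0546 for TLR2, with -0.34 (SE 0.14) for FFC minus SD. Neither passed adjustment.

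The correlations between animals depended on the scale. Group means were removed first, and p came from permuting animals within groups 100000 times, with Benjamini-Hochberg adjustment over all pairs of kidney genes. On the reference-gene scale all 10 pairs of the 5 genes had a positive r, but so had most of the panel, with a median r of 0.456, and 6 of the 10 passed, beside 55.7% of all pairs. TNFRSF1A and TNFRSF1B then had r = 0.73 (permutation p = 1e-05, adjusted 0.00011). Relative to the panel mean, where the median r was -0.00 and 2.89% of pairs passed, the same receptors had r = -0.31 (Spearman rho = -0.38, permutation p = 0.131 and 0.0625, adjusted 0.490 and 0.388). The sign for the receptor pair thus turned with the scaling.

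**Figure D4:**
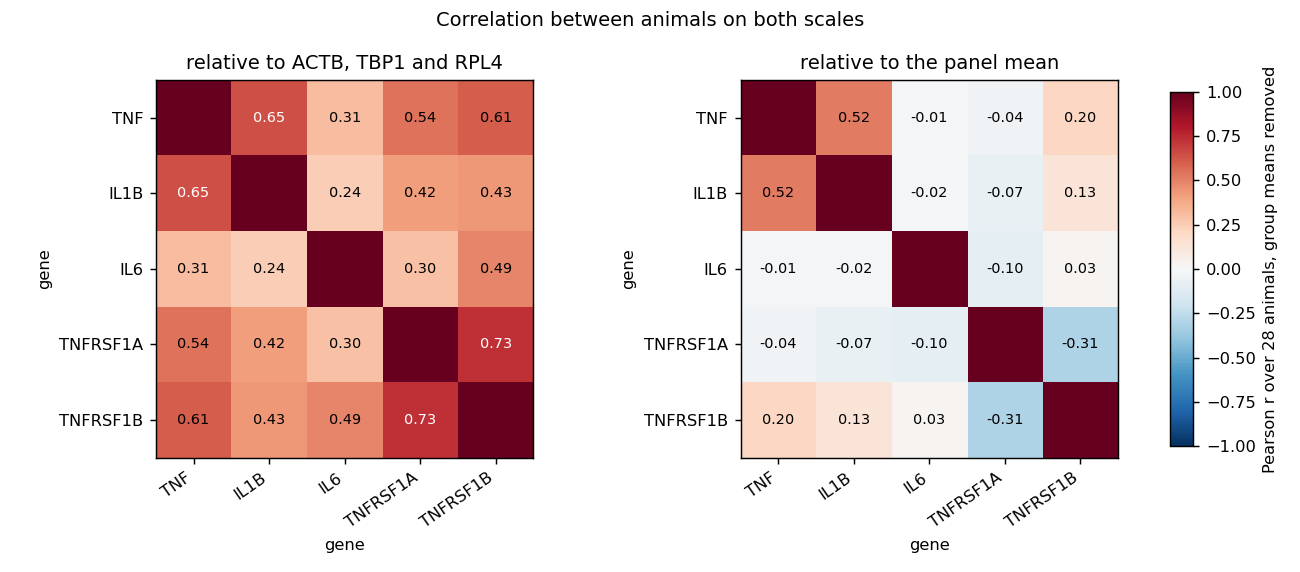
Pearson r between the 5 genes over 28 animals with group means removed, relative to the reference genes (left) and to the panel mean (right). The left matrix is positive throughout, with 0.73 for the receptors, and on the right 0.52 for TNF and IL1B is the highest value.

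TNF and IL1B had the highest correlation of the 10 pairs relative to the panel, while on the reference-gene scale the receptor pair was higher, at 0.73 against 0.65. Their panel-relative r was 0.52 (permutation p = 0.00866, adjusted 0.138) and rho 0.42 (p = 0.039, adjusted 0.312), which did not pass over all pairs. Within the groups r was 0.82 in SD (exact permutation p = 0.0343, n = 7), 0.40 in FFC (permutation p = 0.177, n = 13) and 0.37 in FFC-DIA (exact permutation p = 0.366, n = 8). Without FFC animals 7 and 9, the farthest from the median of TNF, r was 0.37 (permutation p = 0.097), so the relation leaned on them. Relative to the reference genes r was 0.65 (adjusted p = 0.00349), and 0.36 (permutation p = 0.0999) without FFC animal 9 and SD animal 5.

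No ligand tracked a receptor relative to the panel. The 6 values of r lay between -0.10 for IL6 and TNFRSF1A and 0.20 for TNF and TNFRSF1B, with adjusted p of 0.681 or more. On the scale of the reference genes 4 of these 6 pairs passed, beside 55.7% of all pairs, namely TNFRSF1B with TNF (r = 0.61), IL6 (0.49) and IL1B (0.43), and TNFRSF1A with TNF (0.54). IL1B and TNFRSF1B had r = 0.77 within FFC (permutation p = 0.00245, n = 13), where FFC animal 9 had the highest value of both genes, against -0.26 in SD and -0.33 in FFC-DIA. Over all animals r was 0.13, and -0.02 without FFC animal 9. IL6 stood apart from the other ligands, with r = -0.01 to TNF and -0.02 to IL1B.

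The genes most like each member were found by the highest r relative to the panel over 28 animals. For TNF they were CCL2, a chemokine that draws monocytes (r = 0.63, permutation p = 0.00071, adjusted 0.0339, rho = 0.65), IL1B (0.52) and END1, named as deposited (0.43, adjusted p = 0.256). Within SD, TNF and CCL2 had r = 0.87, against 0.63 within FFC and 0.25 within FFC-DIA. Their r was 0.58 (permutation p = 0.00519) without FFC animals 7 and 9. The call was lost without any of SD animals 2 to 5, FFC animals 2, 4, 6, 9, 10 and 12 or FFC-DIA animals 1 and 3, with adjusted p up to 0.104. For IL1B the nearest were CCL2 (r = 0.59, adjusted p = 0.0906), TNF (0.52) and VCAM1, an adhesion molecule of activated endothelium (0.50, adjusted p = 0.209). Without FFC animal 9 and SD animal 5 these fell to 0.29 for CCL2 and 0.06 for VCAM1, and within FFC-DIA r with CCL2 was -0.60, so the likeness of IL1B and CCL2 rested on the animals with the most IL1B.

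FFC animal 9 was high in several of these transcripts at once. Its panel-relative value was -0.18 for IL1B, 3.83 for CCL2 and 0.57 for TNFRSF1B, each the highest of all 28. Its TNF, at -2.89, was second in FFC to animal 7 at -2.52. Its IL6 was not high, at -4.05 beside an FFC median of -3.65.

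For IL6 the nearest genes were FN1, which encodes fibronectin (r = 0.43, adjusted p = 0.266), IGFBP7 (0.41, adjusted p = 0.267) and CTGF, a matrix-inducing growth factor (0.38, adjusted p = 0.384). None passed adjustment. For IL6 and FN1 r was 0.77 within SD and 0.23 within FFC, and 0.13 without FFC animal 8 and SD animal 7.

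The genes nearest to the receptors were other ones. Among the 3 nearest to TNFRSF1B were TIMP2 and MMP2, an inhibitor and a protease of matrix turnover, with r = 0.61 (permutation p = 0.00245, adjusted 0.0708, rho = 0.60) and r = 0.58 (permutation p = 0.00472, adjusted 0.0971, rho = 0.55). For TIMP2 r was 0.98 within SD, 0.18 within FFC and 0.67 within FFC-DIA, and 0.53 (permutation p = 0.00751) without SD animal 7 and FFC-DIA animal 3. TIMP2 passed without FFC animal 6 or FFC-DIA animals 3 or 7, and MMP2 without FFC-DIA animal 6.

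For TNFRSF1A the nearest were ACTN4, an actin crosslinker (r = 0.65, permutation p = 0.00031, adjusted 0.0226, rho = 0.67), ITGA3, a laminin-binding integrin (0.62, adjusted p = 0.0317) and HIF1A, the oxygen-regulated transcription factor (0.61, adjusted p = 0.0477). Without FFC animals 11 and 13 they were 0.72, 0.62 and 0.60. ACTN4 had r = 0.84 within SD, 0.37 within FFC and 0.92 within FFC-DIA. ACTN4 lost its call without SD animal 4 or FFC-DIA animal 1 (adjusted p = 0.0553 and 0.0561). ITGA3 lost it without SD animal 2, FFC animals 3, 10 or 11 or FFC-DIA animals 1 or 7 (up to 0.0708). HIF1A held only without SD animals 1, 4 or 7, FFC animals 1, 6, 8, 9, 10, 12 or 13, or FFC-DIA animal 6, and otherwise reached 0.107.

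**Figure D5:**
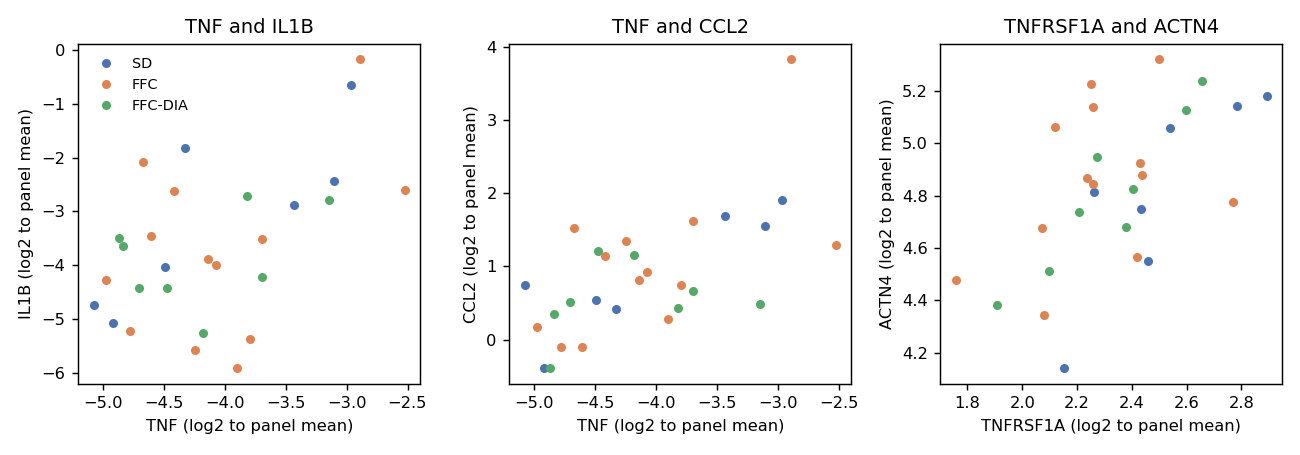
Panel-relative log2 values of 3 gene pairs, with each point an animal coloured by group. TNF and IL1B scatter widely, TNFRSF1A and ACTN4 tend to rise together, and FFC animal 9 is the single point at 3.83 for CCL2.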

How the data were processed

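Per the study's methods, RNA of kidney cortex was reverse-transcribed in 2 replicates, pre-amplified over 16 cycles and run with EvaGreen dye on a microfluidic qPCR chip. The authors deposited Cq values of 77 assays, in cycles and without normalization. A second deposited table holds each animal's fold change as a ratio to SD, corrected for efficiency and normalized to reference genes by the authors. Many of these ratios are rounded to whole numbers and the row of IL6 holds 0, so they served only as an alternative, for 4 of the 5 genes.

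Log2 relative quantities were computed from Cq with a factor of 2 per cycle. All tests covered the 73 kidney genes or all their pairs, with a threshold of 0.05, in Python 3.11.15 with numpy 2.4.6 and scipy 1.17.1. Limma 3.58.1 in R 4.3.3 was an alternative. F statistics were tested with 100000 permuted labellings. Adjustment was by Bonferroni for single genes and by Benjamini-Hochberg for Cq differences of gene pairs. Pairs of groups were tested over all 77520 (FFC and SD), 6435 (FFC-DIA and SD) or 203490 (FFC-DIA and FFC) splits, two-sided, with Benjamini-Hochberg adjustment. The procedures were tested on simulated data. qPCR has no read depth, and the number of animals limits the precision. Over the 73 genes the median Cq of an animal was 11.3 to 13.6 in SD, 10.8 to 13.2 in FFC and 10.4 to 12.1 in FFC-DIA.

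The named genes were the 5 members, the 3 genes with the highest r to each, the gene of each list with the smallest p, and reference genes a result turned on. Members and lists were chosen with earlier results of these data known. The study ran in staggered cohorts that the labels do not give, and cohort was not tested. Alternatives covered reference genes, scaling, efficiency, statistic, filter, replicate block and each animal left out. Some genes these rules name are not reported here.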

Additional observations from a re-analysis of the deposited data

How the results depend on the processing

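Of 356 values of group differences under other settings, 317 kept their direction and side of the threshold, 2 newly passed and 37 changed sign, and with each animal left out 658 of 672 did so, 4 newly passed and 10 changed sign. Of the within-animal differences 63 of 64 and 430 of 448 stayed, of the levels 46 of 50 and 249 of 280, and of the correlations 76 of 115 and 581 of 644. Except where stated, the cause was not tested. With ACTB alone TNFRSF1A was -0.18 for FFC minus SD, and for FFC-DIA minus FFC TNF was 0.12, IL1B 0.15, TNFRSF1A 0.32 and TNFRSF1B 0.25. With TBP1 alone TNFRSF1A was -0.060 for FFC minus SD, and TNF -0.31 and TNFRSF1A -0.33 for FFC-DIA minus SD. With RPL4 alone FFC minus SD was 0.68 for IL1B, 0.49 for IL6, and past the threshold, as for 72.6% of the 73 genes, at 1.11 for TNFRSF1A and 1.56 for TNFRSF1B. With GAPDH alone FFC minus SD was -0.82 for TNF, -1.04 for TNFRSF1A and -0.59 for TNFRSF1B, and FFC-DIA minus SD -1.46, -1.48 and -1.09. With all 4 reference genes TNFRSF1A FFC minus SD was -0.042, and for FFC-DIA minus SD TNF was -0.32 and TNFRSF1A -0.33. SD animal 6 had a GAPDH Cq of 20.6, against 8.23 to 9.26 in the other 6 SD animals. Without it, an alternative chosen after seeing the data, the GAPDH values of FFC minus SD were 0.74 for TNF, 0.66 for TNFRSF1A and 1.17 for TNFRSF1B, and those of FFC-DIA minus SD 0.10, 0.22 and 0.67. Those of IL1B were then -0.0026 and -0.61, and those of IL6 0.12 and -0.73. With all 4 reference genes they were then 0.38 for TNFRSF1A in FFC minus SD, and -0.030 for TNF and 0.085 for TNFRSF1A in FFC-DIA minus SD. With ACTB and TBP1 TNFRSF1A was -0.12 for FFC minus SD, -0.095 for FFC-DIA minus SD and 0.024 for FFC-DIA minus FFC, and TNF FFC-DIA minus SD was -0.078. With the panel mean TNF was -0.0099 and TNFRSF1A -0.23 for FFC minus SD, TNF -0.17 and TNFRSF1A -0.19 for FFC-DIA minus SD, and TNFRSF1A 0.040 for FFC-DIA minus FFC. With the panel median TNF was -0.043 and TNFRSF1A -0.26 for FFC minus SD, and TNF -0.33 and TNFRSF1A -0.35 for FFC-DIA minus SD. On linear quantities IL1B was 0.43 for FFC minus SD and TNF -0.10 for FFC-DIA minus SD, and by ranks TNFRSF1A was -0.27 mean ranks for FFC-DIA minus SD. Replicate numbers only name animals. Same-numbered animals correlated between -0.48 and 0.54, and few correlated best with their own number, so the numbers do not pair the animals. With the replicate block TNFRSF1A was -0.013 for FFC-DIA minus SD and IL1B 0.44 for FFC-DIA minus FFC, and no member was called. With factors of 2.1 for receptors and 1.9 for ligands the p of IL6 minus TNFRSF1B was 0.00436, no longer past adjustment, and with pre-amplification included the levels relative to TNFRSF1B were -0.84 for IL1B, -0.80 for IL6 and -0.39 for TNF. The median difference of IL6 and IL1B was -0.22. On the reference-gene scale r was 0.65 for TNF and IL1B (now past the threshold, as were 5 other pairs of the 10, beside 55.7% of all pairs), 0.31 for TNF and IL6, 0.54 for TNF and TNFRSF1A, 0.24 for IL1B and IL6, 0.42 for IL1B and TNFRSF1A, 0.30 for IL6 and TNFRSF1A and 0.73 for both receptors. Spearman's rho was 0.0038 for TNF and TNFRSF1A, 0.080 for IL1B and IL6 and -0.19 for IL6 and TNFRSF1B. With group means kept r was 0.034 for TNF and IL6, 0.11 for IL1B and IL6, 0.0083 for IL1B and TNFRSF1A, 0.12 for IL6 and TNFRSF1A and -0.10 for IL6 and TNFRSF1B. Without the 2 farthest animals it was 0.080 for IL1B and IL6, -0.14 for IL1B and TNFRSF1B, 0.027 for IL6 and TNFRSF1A and -0.31 for IL6 and TNFRSF1B. Without FFC animal 9 and SD animal 5, chosen after seeing the data, it was 0.055 for TNF and IL6, 0.080 for IL1B and IL6 and -0.14 for IL1B and TNFRSF1B.

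With each animal left out, FFC minus SD ran from -0.54 to 0.35 for IL1B, and FFC-DIA minus SD from -0.15 to 0.33 for TNF, -0.039 to 0.12 for TNFRSF1A and -1.32 to -0.83 for IL6. Leaving out each animal was also done for IL6 relative to the panel, a run added after seeing the data. There IL6 ran from -1.10 to -0.70 for FFC minus SD and from -1.47 to -1.07 for FFC-DIA minus SD. Its p over the 3 groups was 0.00023 to 0.0154 by the permutation test of F. The p over the 3 groups ran from 0.00091 to 0.0144 for IL6 minus TNFRSF1B and from 0.00195 to 0.0901 for IL6 minus TNFRSF1A, and FFC-DIA minus SD from 1.24 to 1.59 and from 0.87 to 1.33 cycles. The level differences ran from -0.11 to 0.11 for IL6 minus IL1B, 0.37 to 0.53 for TNF minus IL6 and 0.40 to 0.57 for TNF minus IL1B. The correlations that changed sign ran from -0.10 to 0.076 for TNF and IL6, -0.13 to 0.078 for TNF and TNFRSF1A, -0.077 to 0.091 for IL1B and IL6, -0.16 to 0.033 for IL1B and TNFRSF1A, -0.023 to 0.26 for IL1B and TNFRSF1B, -0.21 to 0.031 for IL6 and TNFRSF1A and -0.30 to 0.093 for IL6 and TNFRSF1B.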
